A study of Mus musculus with 4 samples.

Results

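The genes described here encode the enzymes that methylate lysine 9 of histone H3 (H3K9), the proteins that read the mark, one cofactor and one demethylase. They are Suv39h1, Suv39h2, Setdb1, Ehmt1 and Ehmt2 (methyltransferases), Trim28 (cofactor), Cbx1, Cbx3 and Cbx5 (the HP1 proteins) and Kdm4a (demethylase), and they were taken by gene symbol from the expression files. Of these 10 genes, 9 were among the 16861 genes listed and 8 passed the filter on low values, out of 11672 genes that passed. Ehmt2 lay below the filter and is given as levels only, and Suv39h1 was not analysed here.

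The libraries came from germinal vesicle (GV) oocytes taken from the antral follicles of female C57BL/6J mice aged 3 weeks, with no transgene, deletion or drug comparison named for either group. All oocytes were freed of cumulus cells and sorted by Hoechst staining of living cells in medium with milrinone, which holds oocytes in prophase. Oocytes with chromatin spread through the nucleus formed the non-surrounded nucleolus (NSN) group, those with a chromatin ring around the nucleolus formed the surrounded nucleolus (SN) group, and oocytes that could not be classed were discarded. In both groups the zona pellucida was removed with pronase E, and 15 oocytes were pooled for each Smart-seq2 library, which starts from polyadenylated RNA. There were 2 NSN and 2 SN libraries here, whereas the labels state 3 samples per group. The labels do not tie a library to a mouse or a day, so the spread between these libraries may be technical. The limma p-values measure that spread after it is moderated with the spread of genes of similar level. A pool cannot show whether every oocyte in it shifted or only some did.

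Values are FPKM, the read pairs of a gene divided by its exonic length and by the total of the library, so each is a share of a library corrected for gene length and not an amount per oocyte. A lower share of cells carrying an mRNA and less of it in each cell cannot be told apart. A gene was called when limma gave an adjusted p under 0.05 (Benjamini-Hochberg over all 11672 genes, two-sided) and the fold change was at least 1.2. Fold changes were fitted on log2(FPKM + 0.5), which understates the change of low genes. Library totals recovered from the values ran from 17069772 to 17998361 read pairs. The 100 most abundant genes took 35.4% to 35.5% of all read pairs in SN and 38.8% to 39.8% in NSN. The median tested gene lay 0.14 higher in SN on the log2 scale, so changes are also given after scaling the libraries to their median gene. Among all tested genes 926 were called, 75.1% of them higher in SN, and after median scaling 257 were called, 30.4% of them higher.

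All 12 oocyte marker genes were listed, with Gdf9 between 2290 and 5240 FPKM. Of these markers 8 were called lower in SN, beside 1.98% of all tested genes. After median scaling 5 of the markers were called, beside 2.20% of all tested genes. Of 16 granulosa and cumulus cell markers, the defining genes Amh and Foxl2 and the cumulus genes Ptx3 and Tnfaip6 were not listed. The summed level of the other 12 was 9.84 and 14.0 FPKM in NSN and 14.2 and 14.1 FPKM in SN, most of it from Cyp19a1. None of the 4 granulosa and cumulus markers tested was called by limma or voom, which called 7.93% and 19.8% of the genes each tested. An unadjusted limma p below 0.05 was found for 0 of the 4, and for 3695 of the 11672 tested genes. In 2 of the 4 both SN libraries lay above both NSN libraries, as in 44.8% of all tested genes. The part of such cells in the changes given here was not tested.

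H3K9 methylation is the best known mark of silent chromatin. SUV39H1 and SUV39H2 place the trimethyl mark mainly on the repeats beside the centromeres. SETDB1 is brought by TRIM28 and zinc finger proteins to retrotransposons and imprinted regions, and EHMT1 and EHMT2 (GLP and G9a) act as a pair that writes the mono- and dimethyl marks. HP1 proteins bind methylated H3K9 through their chromodomain, and KDM4A removes the trimethyl mark. In the fully grown mouse oocyte the centromeric heterochromatin gathers at the nucleolus as the SN state forms, which makes the transcripts of these proteins of interest in a comparison of NSN with SN.

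The 3 HP1 genes are similar in their coding sequence, and Cbx3 also has many processed copies in the genome, which bears on how its reads are counted. The stretches below are homologous 50-base coding segments of the Ensembl canonical transcripts of the mouse assembly GRCm39, read 5′ to 3′ on the coding strand. The Cbx3 stretch was chosen for its many exact copies elsewhere, so it is not a typical stretch of the gene. Coding windows with a copy on a further chromosome were left out first, so that chromosome cannot appear among the loci below. Of the rest, 6 windows tied for the most copies, and the window closest to Cbx1 and Cbx5 was taken. The Cbx1 and Cbx5 stretches are their closest coding matches to it, so the differences counted below were kept low by the choice. The stretches come from chr6:51452245-51452294 on the plus strand (Cbx3, bases 59 to 108 of the coding sequence), chr11:96691665-96691714 on the plus strand (Cbx1) and chr15:103121558-103121607 on the minus strand (Cbx5), and capitals mark the bases that differ from Cbx3.
Cbx3: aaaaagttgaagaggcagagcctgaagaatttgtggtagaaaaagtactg
Cbx1: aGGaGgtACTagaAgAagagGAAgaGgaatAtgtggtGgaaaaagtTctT
Cbx5: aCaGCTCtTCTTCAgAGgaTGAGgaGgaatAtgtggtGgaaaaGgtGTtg
Cbx1 differed from Cbx3 at 16 of these 50 bases and Cbx5 at 23. The Cbx3 segment occurred without a mismatch at 8 other loci, on chromosomes 1, 5, 9, 13 and 14, whereas the Cbx1 and Cbx5 segments had 0 such copies. Over the whole canonical transcript, 68.8% of the 50-base windows of Cbx3 were found elsewhere in the genome, and 90% of those in its coding sequence. No 50-base window of Cbx3 was shared with Cbx1 or Cbx5 (0 for each), so the 3 genes could be separated from one another by reads of that length. All 8 annotated Cbx3 pseudogenes named as such (Cbx3-ps) held a copy of at least one window, and 0 of them were listed in the expression files.

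In both groups the 9 genes covered a wide range of levels per length. In NSN oocytes the order from the highest mean FPKM was Cbx1, Setdb1, Suv39h2, Trim28, Cbx5, Ehmt1, Kdm4a, Cbx3 and Ehmt2, from 25.1 down to 0.193 FPKM. In SN oocytes Setdb1 stood above Cbx1 (32.2 and 29.2 FPKM), and the order of the other genes did not change. Neighbours in these orders did not overlap between their libraries, except Cbx1 and Setdb1 in NSN oocytes. Cbx1 and Setdb1 each lay above 87.7% of all listed genes by their mean over the 4 libraries, and Ehmt2 lay above 15.1%.

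**Figure D1:**
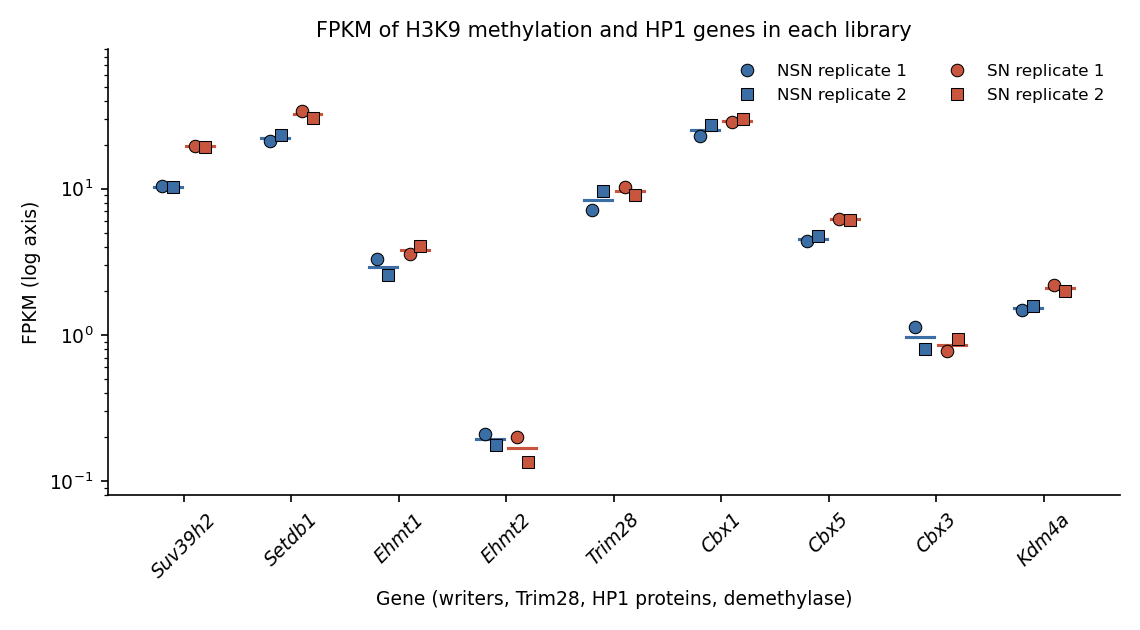
FPKM of the 9 listed genes on a log axis, 1 point per library (circles replicate 1, squares replicate 2) with NSN in blue, SN in red and a bar at each group mean. The red points of Suv39h2 and Setdb1 lie clear above the blue ones, and the colours overlap for Ehmt2, Trim28 and Cbx3.

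Suv39h2 and Setdb1 were called, both higher in SN oocytes. That is 2 of the 8 genes tested, against 7.93% of all tested genes called in either direction, 5.95% called higher in SN and 1.98% called lower. In 6 of the 8 genes both SN libraries lay above both NSN libraries, which was also so for 44.8% of all tested genes. In 0 of the 8 did both lie below, against 17.8% of all tested genes. The median log2 change of the 8 genes was 0.34, beside 0.14 for all tested genes, and it was 0.22 after median scaling.

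Suv39h2 (chr2:3455774-3476146, minus strand, 6 exons in its canonical transcript) measured 10.4 and 10.3 FPKM in NSN oocytes and 19.7 and 19.4 FPKM in SN oocytes. These values rest on 787 and 797 read pairs in NSN and on 1455 and 1513 in SN. Replicates lay close together, and the groups were far apart. The SN mean (19.6 ± 0.192 FPKM, SD, n = 2) was 1.89 times the NSN mean (10.4 ± 0.116 FPKM, SD, n = 2). On the log2 scale Suv39h2 rose by 0.88 (SE 0.10, 95% interval 0.66 to 1.11, limma adjusted p = 0.0364), more than 98.8% of all tested genes. After median scaling the rise was 0.74 (limma adjusted p = 0.0451), a setting in which 2.20% of all tested genes were called. Over 15 alternative settings the change ran from 0.72 to 0.92 with an adjusted p between 0.000317 and 0.0921, and the gene was called in 10. The call was lost without NSN replicate 1 (limma adjusted p = 0.0709) and without SN replicate 2 (0.0776), and in neither case did the size of the change move by much (0.90 and 0.89).

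Part of the Suv39h2 locus is shared with other gene models. In the GENCODE vM39 annotation 52.4% of its exonic bases overlapped Dclre1c, a DNA repair nuclease gene, or Gm13184. The canonical Suv39h2 transcript overlapped no exon of another gene's canonical transcript, and its overlap with other transcripts of those genes was not measured. Counting did not use strand, and the authors counted on an earlier release (vM34), with a length of 4327 bases for Suv39h2 against 10082 exonic bases in vM39, so the overlaps given here may not be those of the gene models counted. Dclre1c itself measured 0.937 and 1.23 FPKM in NSN and 1.09 and 0.955 FPKM in SN and was lower than Suv39h2 in each library, with overlapping groups and a log2 change of -0.05 (limma adjusted p = 0.871), or -0.16 after median scaling.

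Setdb1 (chr3:95229399-95264541, minus strand, 22 exons in its canonical transcript) was the most abundant methyltransferase transcript. It measured 21.2 and 23.3 FPKM in NSN oocytes and 33.8 and 30.6 FPKM in SN oocytes, from 1717, 1943, 2688 and 2565 read pairs. The groups did not overlap, and the SN mean (32.2 ± 2.27 FPKM, SD, n = 2) was 1.45 times the NSN mean (22.2 ± 1.49 FPKM, SD, n = 2). Setdb1 rose by 0.52 on the log2 scale (SE 0.10, 95% interval 0.28 to 0.77, limma adjusted p = 0.0413). After median scaling the difference was 0.37 and was not called (limma adjusted p = 0.0705). Over 15 alternatives the adjusted p lay between 0.00268 and 0.131, with the gene called in 6 and the change between 0.37 and 0.60. The call was lost without NSN replicate 1 (0.46, limma adjusted p = 0.117), without SN replicate 1 (0.45, 0.112) and without SN replicate 2 (0.60, 0.0944). Of the exonic bases of Setdb1, 23.5% overlapped other gene models (6.28% of the canonical transcript), among them Cers2, a ceramide synthase gene whose own change was -0.24 (limma adjusted p = 0.143), or -0.39 after median scaling.

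Ehmt1 (GLP) measured 3.28 and 2.57 FPKM in NSN oocytes and 3.57 and 4.05 FPKM in SN oocytes. Both SN values were the higher, but the 2 NSN libraries differed from each other by more than SN replicate 1 did from the nearer of them. The log2 difference was 0.34 (SE 0.16, 95% interval -0.05 to 0.72), which was not called (limma adjusted p = 0.200), and it was 0.20 after median scaling.

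Ehmt2 (G9a), the partner of Ehmt1, was close to the limit of these libraries. Its levels were 0.209 and 0.176 FPKM in NSN and 0.199 and 0.135 FPKM in SN, from 15, 13, 14 and 10 read pairs, and the groups overlapped. A count of 3 read pairs would correspond to 0.0405 to 0.0427 FPKM for this gene, so it was detected in all 4 libraries. The filter left it out of the test. Per length, Ehmt1 exceeded Ehmt2 by 15.7 and 14.6 times in NSN and by 17.9 and 30.0 times in SN. The log2 ratio of Ehmt1 to Ehmt2 was 3.92 ± 0.0742 in NSN and 4.54 ± 0.525 in SN (SD, n = 2 each), and an exact two-sided permutation test gave p = 0.333, the smallest that 2 against 2 libraries allow.

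A ratio taken within a library does not depend on how libraries are scaled. The ratio of Suv39h2 to Setdb1 was 0.494 and 0.442 in NSN and 0.583 and 0.635 in SN. Both SN ratios were the higher (exact two-sided permutation p = 0.333, n = 2 each). Of the summed FPKM of the 4 listed methyltransferases, Suv39h2 made up 29.8% and 28.3% in NSN and 34.4% and 35.8% in SN. The share of Setdb1 was 60.3% and 64.1% in NSN and 59.0% and 56.4% in SN. The sum itself was 35.1 and 36.3 FPKM in NSN and 57.3 and 54.2 FPKM in SN, with the same permutation p of 0.333 (exact, n = 2 each).

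**Figure D2:**
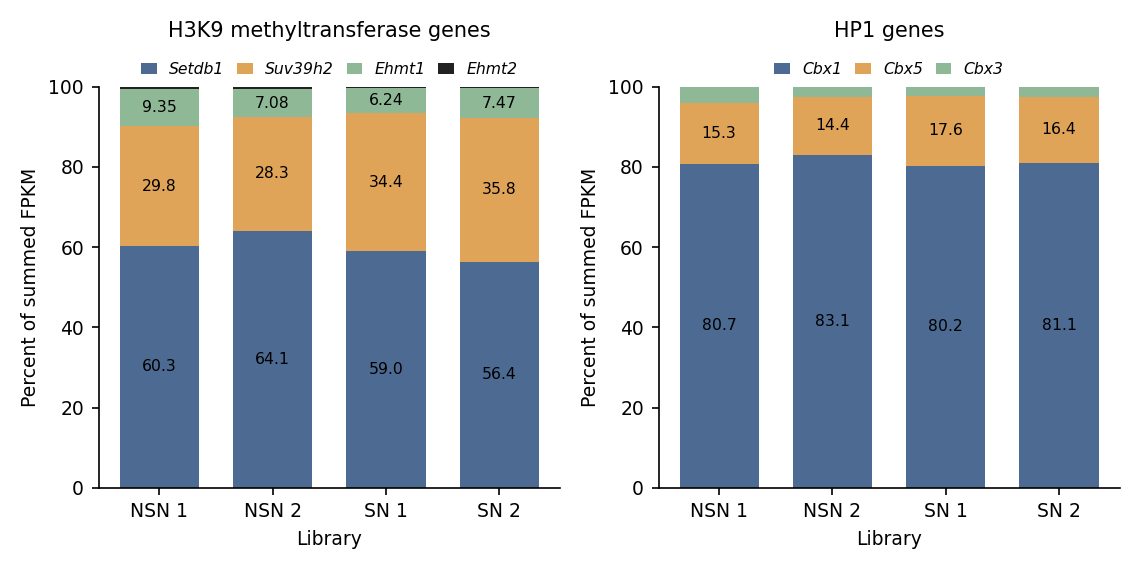
Share of the summed FPKM, in percent, taken by each of the 4 listed methyltransferase genes (left) and each of the 3 HP1 genes (right) in each library. The Suv39h2 segment grows from 29.8% and 28.3% in NSN to 34.4% and 35.8% in SN, and Cbx1 holds between 80.2% and 83.1% of the HP1 sum in all 4 libraries.

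Trim28 (KAP1), the scaffold that brings SETDB1 to KRAB zinc finger proteins, measured 7.10 and 9.69 FPKM in NSN oocytes and 10.2 and 9.09 FPKM in SN oocytes. The groups overlapped, since NSN replicate 2 lay above SN replicate 2. The log2 difference was 0.20 (SE 0.16, 95% interval -0.18 to 0.59, limma adjusted p = 0.420), and it was 0.06 after median scaling. Without NSN replicate 1 the difference was -0.00789. Of the annotated exonic bases of Trim28, 67.8% overlapped exons of Chmp2a, an endosomal sorting gene. The log2 change of Chmp2a was 0.15 (limma adjusted p = 0.313), or 0.00 after median scaling. The canonical Trim28 transcript overlapped no exon of another gene's canonical transcript, a measure that leaves out the other transcripts of that gene. In each library Trim28 was lower per length than Setdb1.

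Among the HP1 genes, Cbx1 (HP1 beta) was the highest per length in each library. It measured 23.0 and 27.2 FPKM in NSN oocytes and 28.4 and 30.0 FPKM in SN oocytes, which did not overlap but lay close to each other. The log2 difference was 0.22 (SE 0.11, 95% interval -0.04 to 0.48) and was not called (limma adjusted p = 0.222), with 0.07 after median scaling. The Cbx1 values rest on 974 and 1185 read pairs in NSN and on 1177 and 1314 in SN. The length used by the authors was 2430 bases for Cbx1 and 8988 bases for Cbx5. In read pairs these genes therefore lay closer to each other than in FPKM.

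Cbx5 (HP1 alpha) measured 4.36 and 4.73 FPKM in NSN and 6.24 and 6.09 FPKM in SN, from 682, 761, 958 and 985 read pairs. The 2 groups were well separated for their spread. The log2 difference of 0.40 (SE 0.12, 95% interval 0.11 to 0.69) missed the threshold (limma adjusted p = 0.0817), and it was 0.26 after median scaling. Over 15 alternatives its adjusted p lay between 0.0136 and 0.272, and the gene was called in 2 of them, with voom (the limma method that weights counts by their precision) on the recovered read pairs and among genes with a mean of at least 5 FPKM.

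Cbx3 (HP1 gamma) was low in all 4 libraries, with 1.14 and 0.797 FPKM in NSN and 0.777 and 0.935 FPKM in SN, from 39, 28, 26 and 33 read pairs. The groups overlapped. The log2 difference of -0.11 (SE 0.20, 95% interval -0.58 to 0.36, limma adjusted p = 0.736) was -0.21 after median scaling and became 0.0614 without NSN replicate 1. The Cbx3 stretch printed above has 8 exact copies elsewhere. Read pairs with a mapping quality under 10 were not counted by the authors, and 68.8% of the 50-base windows of Cbx3 have exact copies elsewhere. Its level is therefore uncertain, and the part of the copies in it was not tested. In addition, 32.1% of the canonical Cbx3 transcript overlapped exons of the canonical transcripts of other genes. The gene models that overlapped any exon of Cbx3 include Hnrnpa2b1, a splicing factor gene. Hnrnpa2b1 had a log2 change of 0.50 (limma adjusted p = 0.0364), which was 0.35 and not called after median scaling.

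Cbx1 contributed 80.7% and 83.1% of the summed HP1 FPKM in NSN and 80.2% and 81.1% in SN, with overlapping groups. The share of Cbx5 was 15.3% and 14.4% in NSN and 17.6% and 16.4% in SN, so that both SN libraries were the higher (exact two-sided permutation p = 0.333, n = 2 each). The measured share of Cbx3 was 2.19% to 4.0%, and the shares of all 3 genes carry the uncertainty of its level. The ratio of Cbx1 to Cbx5, which leaves Cbx3 out, was 5.28 and 5.76 in NSN and 4.54 and 4.93 in SN.

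Kdm4a, a demethylase of trimethylated H3K9 and H3K36, measured 1.49 and 1.57 FPKM in NSN oocytes and 2.18 and 2.0 FPKM in SN oocytes, from 131, 142, 188 and 182 read pairs. Both SN libraries lay above both NSN libraries. The log2 difference of 0.35 (SE 0.15, 95% interval -0.01 to 0.71) was not called (limma adjusted p = 0.167) and was 0.23 after median scaling, and the fold of the means was 1.37.

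**Figure D3:**
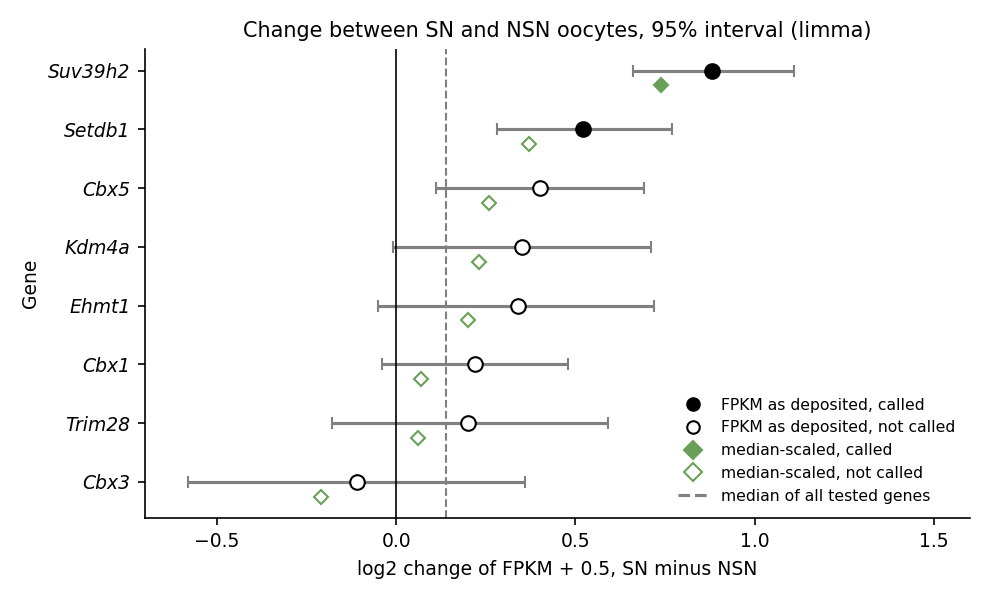
Log2 change between SN and NSN (SN minus NSN, FPKM + 0.5) of the 8 tested genes with the 95% interval from limma (circles) and after median scaling (diamonds, no interval drawn), filled where called, with a dashed line at the median of all tested genes (0.14). Suv39h2 is filled under both scalings, Setdb1 under the deposited scaling alone, and the interval of Cbx3 spans 0.

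Other genes of the same pathway were taken from 3 lists. Among 14 further H3K9 writers and partners all were listed, 13 were tested and 1 was called, beside 7.93% of all tested genes. The called gene was Atf7ip2, a paralogue of the SETDB1 cofactor gene Atf7ip. It measured 7.84 and 8.31 FPKM in NSN and 12.7 and 11.8 FPKM in SN, and it rose by 0.57 on the log2 scale (SE 0.11, limma adjusted p = 0.0406). The rise was 0.43 and not called after median scaling (limma adjusted p = 0.0668), and over 15 alternatives the adjusted p lay between 0.0044 and 0.12. Atf7ip2 lost its call without NSN replicate 1 (limma adjusted p = 0.110), SN replicate 1 (0.12) or SN replicate 2 (0.0987). The list's median log2 change was 0.30, or 0.18 after median scaling.

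The most abundant gene of that list was Zfp57. It encodes the KRAB zinc finger protein that recruits TRIM28 and SETDB1 to imprinted regions. It measured 1500 and 1420 FPKM in NSN and 1410 and 1480 FPKM in SN. The groups overlapped, and the log2 difference was -0.01 (SE 0.07, 95% interval -0.18 to 0.16, limma adjusted p = 0.916) and -0.17 after median scaling. Neither direction was called.

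Among 11 further demethylase genes, all were listed, 6 were tested and 2 were called (7.93% of all tested genes were), in opposite directions, with a list median of 0.24 (0.12 after median scaling). Kdm1b (LSD2), a demethylase of H3K4 needed for the methylation of imprinted genes in growing oocytes, fell from 27.7 and 24.1 FPKM in NSN to 15.5 and 10.2 FPKM in SN. The groups did not overlap, and the SN replicates lay farther apart than the NSN replicates. Kdm1b fell by 1.01 on the log2 scale (SE 0.19, 95% interval -1.47 to -0.55, limma adjusted p = 0.0406) and by 1.16 after median scaling (limma adjusted p = 0.0489). Over 15 alternatives its change ran from -1.30 to -0.72 and its adjusted p from 0.000883 to 0.0975. The call was lost without NSN replicate 1 (limma adjusted p = 0.0975) and without SN replicate 2 (0.0864).

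Kdm7a, which removes dimethyl groups from H3K9 and H3K27, measured 5.68 and 6.25 FPKM in NSN and 8.98 and 8.50 FPKM in SN. It rose by 0.52 on the log2 scale (SE 0.12, limma adjusted p = 0.0482), a call that was lost after median scaling (0.37, limma adjusted p = 0.0897) and without NSN replicate 1 (0.157), SN replicate 1 (0.157) or SN replicate 2 (0.134). Over 15 alternatives its adjusted p lay between 0.00321 and 0.157. Kdm1a (LSD1), the paralogue of Kdm1b, is given here after its values were seen. It measured 3.65 and 4.88 FPKM in NSN and 7.49 and 6.61 FPKM in SN, a log2 difference of 0.67 that missed the threshold (SE 0.16, limma adjusted p = 0.0533) and was 0.53 after median scaling. The ratio of Kdm1b to Kdm1a was 7.58 and 4.94 in NSN and 2.07 and 1.54 in SN, without overlap (exact two-sided permutation p = 0.333, n = 2 each).

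The 3 other Kdm4 genes listed were low, with Kdm4b, Kdm4c and Kdm4d all below the filter. Kdm4b measured between 0.255 and 0.500 FPKM over the 4 libraries, Kdm4c between 0.064 and 0.278 FPKM and Kdm4d between 0.0652 and 0.269 FPKM. Kdm4a was therefore the highest of these 4 genes in each library. Kdm3a, another H3K9 demethylase gene, was likewise below the filter, between 0.211 and 0.346 FPKM. These genes were singled out after their values were seen.

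Of 18 genes for the HUSH silencing complex and other heterochromatin factors, 17 were listed, 14 were tested and 2 were called, both higher in SN (5.95% of all tested genes were called higher), with a list median of 0.21 (0.06 after median scaling). Adnp was not analysed here. Zfp518a, a zinc finger gene, measured 8.62 and 9.13 FPKM in NSN and 16.4 and 14.3 FPKM in SN. It rose by 0.75 (SE 0.11, limma adjusted p = 0.0364), and by 0.61 after median scaling (limma adjusted p = 0.0497). Over 15 alternatives its adjusted p lay between 0.000662 and 0.0942, and the call was lost without NSN replicate 1 (limma adjusted p = 0.075), SN replicate 1 (0.0777) or SN replicate 2 (0.0787).

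Chaf1a, the large subunit of the histone chaperone CAF-1, measured 13.4 and 14.3 FPKM in NSN and 19.7 and 20.5 FPKM in SN. It rose by 0.52 (SE 0.10, limma adjusted p = 0.0392), which was 0.37 and not called after median scaling (limma adjusted p = 0.0684). Over 15 alternatives the adjusted p lay between 0.00258 and 0.127, and the call was lost without NSN replicate 1 (limma adjusted p = 0.110), SN replicate 1 (0.0911) or SN replicate 2 (0.12). Uhrf1, a reader of hemimethylated DNA and of methylated H3K9, had the highest mean of this list over the 4 libraries, with 101 and 96.1 FPKM in NSN and 93.3 and 92 FPKM in SN. Both SN values were the lower, and the log2 difference of -0.09 (SE 0.08, 95% interval -0.27 to 0.09) was not called (limma adjusted p = 0.463), and it was -0.24 after median scaling.

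**Figure D4:**
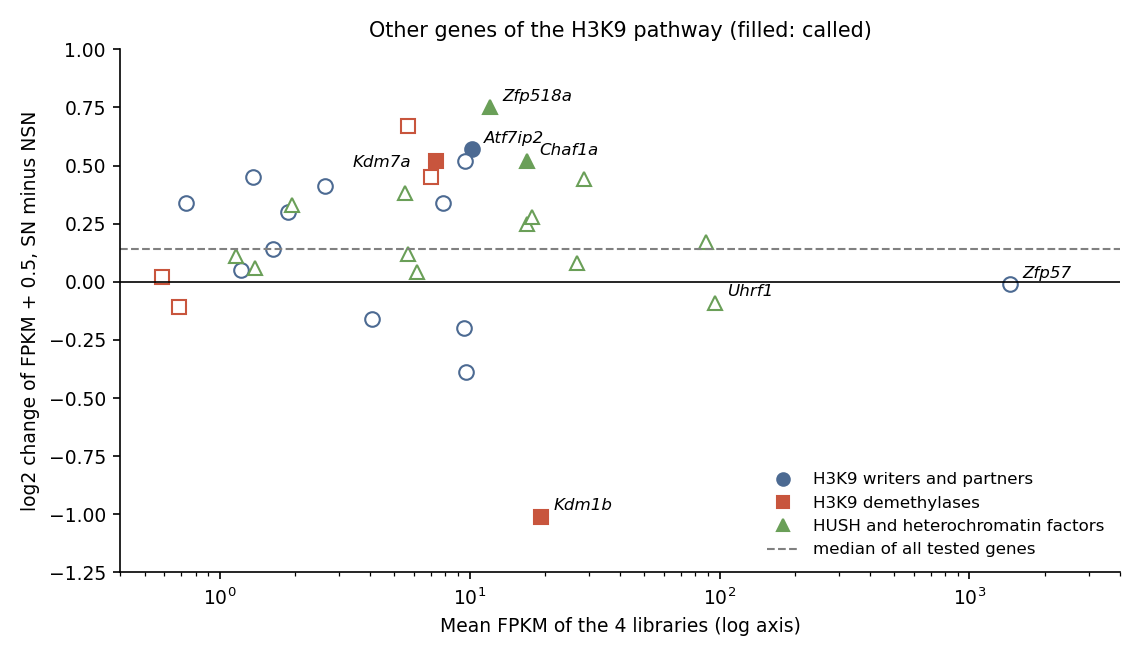
Log2 change between SN and NSN (SN minus NSN) against the mean FPKM of the 4 libraries (log axis) for the tested genes of the 3 further lists, filled where called, with a dashed line at the median of all tested genes. Kdm1b stands alone at the bottom with -1.01, the other 4 called genes lie between 0.52 and 0.75, and Zfp57 and Uhrf1 lie near 0.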

How the data were processed

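Per the labels and the study's methods, oocyte cDNA was made by Smart-seq2 with 18 PCR cycles and no molecular identifiers, reads were trimmed with Trim Galore 0.6.10, mapped to GRCm39 with HISAT2 and counted without strand per gene with featureCounts (GENCODE annotation, mapping quality of at least 10, read pairs). The deposited FPKM values were made by the authors from these counts, with 1 file per library. The DESeq2 results of the study were not used here. Library totals and read pairs per gene were recovered from the FPKM steps (99.84% of genes gave whole read pairs in all 4 libraries, within 6e-11 of a whole number). The limma intervals cover the spread between libraries as moderated over genes. Genes averaging 0.5 FPKM or more over the 4 libraries were tested with limma 3.58.1 in R 4.3.3 (lmFit, eBayes with a variance trend) on log2(FPKM + 0.5), 2 SN against 2 NSN libraries, with no covariate. The tests were tried on simulated data. For limma no shift of the median gene was simulated, so that trial says nothing about the choice of scaling. Calls needed both an adjusted p below 0.05 and a 1.2-fold or larger change, as the study set them. Ratios were tested by an exact permutation test. Exonic overlap and 50-base copies were taken from GRCm39 and GENCODE vM39. The genes and lists were chosen with earlier results of these data known. All genes of the rule are named, with every called gene and the most abundant gene of each further list. Alternatives were other pseudocounts and filters, median and quantile scaling, no variance trend, a replicate block, voom and leaving out each library.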

Additional observations from a re-analysis of the deposited data

How the results depend on the processing

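The calls of these genes changed with the filter, the scaling, the variance model and the libraries included. With all listed genes tested and with no variance trend, 0 of the members, of the writers and partners, of the demethylases and of the HUSH and heterochromatin factors were called (limma called 0 of all genes in either setting, while 4092 and 3449 genes had an unadjusted p below 0.05). With median scaling 1, 0, 1 and 1 were called in that order (2.20% of all genes), and with quantile normalization 1, 0, 1 and 0 (1.97%). With a minimum mean of 5 FPKM the members and HUSH factors had 3 calls each, the writers and partners 2 and the demethylases 4, where 27.1% of all genes tested were called. With voom on recovered read pairs the calls were 3, 6, 4 and 4 (19.8% of all genes), and with voom after median scaling 2, 2, 4 and 2 (14.8%). A pseudocount of 0.1 left 1 demethylase called. Leaving out 1 library in turn, with the lone library of a group assumed to vary like the other group, gave 0 to 2 calls for the members, the writers and partners and the HUSH factors and 0 to 3 for the demethylases. Over all genes the count was 926 and ran from 0 to 2311 over the alternatives (0 also without NSN replicate 1, 12 without SN replicate 2, 422 with the replicate block).

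Replicate numbers are shared between the groups, but no label ties a number to a batch or day, and the differences between replicates 1 and 2 of each group correlated at -0.0703 over genes, so they were not taken as pairs. With the replicate block 1 member was called (Suv39h2), with 0 writers and partners, 1 demethylase and 1 HUSH factor, and with the replicate block and median scaling 0 were called in all lists. The members' median log2 change stayed between 0.20 and 0.42.

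Among the members and the other genes named by the rule, 3 changed direction, none of them called in any setting run. Leaving out 1 library, Trim28 ran from -0.00789 (without NSN replicate 1) to 0.41 (without NSN replicate 2) on the log2 scale and Cbx3 from -0.28 (without NSN replicate 2) to 0.0614 (without NSN replicate 1). Zfp57 ran from -0.0514 (without NSN replicate 2) to 0.0247 (without NSN replicate 1), with 0.0245 without SN replicate 1, and was 0.0476 with quantile normalization. Over all alternatives the lowest change was -0.30 for Cbx3 and -0.17 for Zfp57. Of the genes singled out later, Daxx ran from -0.19 to 0.27 over all alternatives, Morc2a from -0.08 to 0.20 and Pphln1 from -0.07 to 0.10. The causes were not tested.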

Other observations

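The core of the HUSH complex, which recruits SETDB1 to transposable elements, was unevenly expressed in these oocytes, and its genes are given here after their values were seen. Mphosph8, which encodes the chromodomain subunit, measured 81.8 and 83.5 FPKM in NSN and 92.4 and 94.1 FPKM in SN. Pphln1 (periphilin) measured 26.3 and 25.7 FPKM in NSN and 27.5 and 27.7 FPKM in SN. Tasor, the scaffold subunit, was far lower per length, between 1.05 and 1.25 FPKM over the 4 libraries, and the associated ATPase gene Morc2a lay between 1.24 and 1.62 FPKM. None of these 4 genes was called by limma, and their log2 differences between SN and NSN ran from 0.06 (Morc2a) to 0.17 (Mphosph8), beside 0.14 for the median tested gene, and after median scaling they ran from -0.07 (Pphln1) to 0.02 (Mphosph8).

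Cdyl, a chromodomain gene linked to H3K9 and H3K27 methylation, had both SN libraries below both NSN libraries, as did 5 of the 33 tested genes of the 3 further lists (15.2%, beside 17.8% of all tested genes). It measured 11.3 and 10.8 FPKM in NSN and 8.48 and 8.2 FPKM in SN, a log2 difference of -0.39 (SE 0.11, limma adjusted p = 0.0677) and of -0.53 after median scaling (limma adjusted p = 0.0574). Over 15 alternatives its adjusted p lay between 0.0076 and 0.223. Atrx, a chromatin remodeller gene of pericentromeric heterochromatin, measured 25.3 and 23.1 FPKM in NSN and 35.9 and 30.2 FPKM in SN (log2 difference 0.44, SE 0.11, limma adjusted p = 0.0625, and 0.29 after median scaling), whereas its partner Daxx overlapped between the groups, at 7.11 and 5.04 FPKM in NSN and 6.39 and 5.98 FPKM in SN. Cdyl, Atrx and Daxx were likewise chosen after their values were seen.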
